A study of Mus musculus with 3 samples.

Results

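Immunoglobulin kappa light chain variable segments (Igkv) are the genes from which the antigen-contacting part of a kappa antibody chain is drawn, and their use was described in splenic plasma cells and B cells of mice in 3 conditions. The members were all genes whose symbol starts with Igkv, 160 of the 33696 genes counted. Of these, 142 had a unique molecular identifier (UMI, a counted RNA molecule) in at least 1 library and 18 had none, and 101 were the assigned segment of at least 1 plasma cell or B cell. A cell was assigned the segment that held at least 80% of its Igkv UMIs, if it had at least 3 such UMIs.

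Mouse spleen cells were profiled by droplet single-cell RNA sequencing from the 5′ end of transcripts, 1 library per group, labelled MASH-Phe-free (called Phe-free here), MASH and Chow. MASH is metabolic dysfunction-associated steatohepatitis, a fatty liver disease, and the labels do not state how the Phe-free or MASH condition was induced in these spleens, how many animals each library holds, or their sex or age. The series text, which concerns tumour RNA, describes C3H mice on a high-fat and then a methionine- and choline-deficient diet, with a non-steatohepatitis control diet and subcutaneous HCA-1 liver carcinoma cells; whether the spleens came from such mice is not given in the sources used here. With 1 library per group, cells are not replicates, so the values below carry intervals for counting error only and no test of diet was made.

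A developing B cell joins 1 kappa variable segment to 1 of a few joining segments, and the joined exon is then kept by all of its descendants, so that the segment marks a cell's lineage. Because a 5′ library reads the start of the transcript, the UMIs of a kappa chain fall on its variable segment. The same cell also carries a heavy chain variable segment (Ighv), and the pair of both is closer to a clone's identity than either alone. Some pairs recur in every mouse: Ighv11 with Igkv14-126 and Ighv12 with Igkv4-91 are the well-known phosphatidylcholine-binding receptors of B-1 cells, the innate-like B cells that make much of the natural IgM.

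The kappa segments that the results below turn on are printed with the last 120 bases of their coding sequence, 5′ to 3′. These are the 2 segments of B-1 receptors, 2 segments of family 8 that were more used in plasma cells, and 2 that were less used there. The capitals mark the bases after the codon of the conserved cysteine, where the antigen-contacting loop CDR3 begins.
Igkv14-126: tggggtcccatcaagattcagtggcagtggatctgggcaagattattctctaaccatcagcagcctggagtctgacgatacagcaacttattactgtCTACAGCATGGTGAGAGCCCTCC
Igkv4-91: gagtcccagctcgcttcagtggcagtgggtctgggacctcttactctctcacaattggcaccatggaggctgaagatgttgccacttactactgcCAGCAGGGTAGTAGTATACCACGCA
Igkv8-30: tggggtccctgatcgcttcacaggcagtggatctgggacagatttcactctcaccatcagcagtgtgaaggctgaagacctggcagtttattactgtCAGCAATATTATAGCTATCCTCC
Igkv8-24: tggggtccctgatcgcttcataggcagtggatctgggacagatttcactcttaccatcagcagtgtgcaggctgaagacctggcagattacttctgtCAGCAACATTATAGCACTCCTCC
Igkv3-4: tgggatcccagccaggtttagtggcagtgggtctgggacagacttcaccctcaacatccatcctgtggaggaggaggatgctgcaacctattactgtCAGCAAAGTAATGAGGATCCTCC
Igkv6-17: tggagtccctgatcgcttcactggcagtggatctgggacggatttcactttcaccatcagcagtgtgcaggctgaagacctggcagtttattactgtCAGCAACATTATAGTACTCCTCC

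The sequences come from the GENCODE M21 transcripts of GRCm38, matched by gene identifier; the counts were made on GRCm39, so no coordinates are given. All 160 members lie on chromosome 6 in that annotation, where 97 were annotated as variable genes, 60 as pseudogenes and 3 as other protein-coding genes. Assigned cells fell almost wholly on variable genes: 93 of the 97 had a cell, against 6 of the 60 pseudogenes, which held 10 cells in all. The family resemblance limits the resolution. Of the 101 segments used, 43 had a neighbour at least 95% identical over 270 bases, and these held 53.7% of assigned cells. Igkv8-30 and Igkv8-24 were 92.2% identical, Igkv1-117 and Igkv1-110 96.7%, and Igkv6-17 and Igkv6-25 95.2%; how the authors' counting divided reads between such neighbours is not given in the sources used here.

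Plasma cells were the barcodes with at least 10 UMIs of Jchain, the joining chain of secreted IgM and IgA, and B cells those with Cd79a (a B-cell receptor subunit) and Ms4a1 (CD20) but fewer than 10 Jchain UMIs. They numbered 435 Phe-free, 289 MASH and 342 Chow plasma cells and 4456 Phe-free, 5657 MASH and 5889 Chow B cells. A plasma cell held a median of 4265 Igkv UMIs in the Phe-free library, 4183 in the MASH library and 3140.5 in the Chow library, and a B cell 52, 51 and 47 in the same libraries. The 10 plasma-cell markers summed to 35705 to 39507 CPM (counts per 1000000 UMIs of the class) in plasma cells and 668 to 725 CPM in B cells, and the 7 B-cell markers to 1515 to 1712 CPM in plasma cells and 9065 to 9602 CPM in B cells. The label of plasma cell covers a range of maturity: Sdc1 (CD138, the surface marker of plasma cells) had a UMI in 277 Phe-free, 176 MASH and 186 Chow plasma cells, and Ms4a1 in 250, 173 and 179. At the edge of the gate, 11 Phe-free, 7 MASH and 6 Chow plasma cells held 10 or 11 Jchain UMIs, and 12, 8 and 5 cells just outside it held 8 or 9. The libraries shared few barcodes: 102 between Phe-free and MASH, 77 between Phe-free and Chow and 72 between MASH and Chow. Neutrophil markers, 5 in the list, summed to 820 CPM in Phe-free, 8.52 CPM in MASH and 2049 CPM in Chow plasma cells, with 1 of the 5 at 0 in MASH, and to 3735, 533 and 1763 CPM in B cells. The 5 erythroid markers summed to 477, 2618 and 80.6 CPM in Phe-free, MASH and Chow B cells. Cells with 2 or more UMIs summed over the T-cell and myeloid genes Cd3e, Trac, Lyz2, S100a8 and S100a9 were left out as an alternative. This kept all 5 segments called higher in plasma cells than in B cells and 11 of the 12 called lower. In the comparisons between libraries it gave 4 called segments in plasma cells for each of MASH over Chow and Phe-free over MASH, and in B cells 0 and 1. No erythroid gene was used, so the calls were not tested against the erythroid markers.

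Most plasma cells and B cells expressed a single kappa segment. Assigned plasma cells numbered 379 of the Phe-free library (87.1%, exact Clopper-Pearson 95% interval 83.6 to 90.1%), 242 of the MASH library (83.7%) and 284 of the Chow library (83.0%). Assigned B cells numbered 3144 (70.6%), 3961 (70.0%) and 4093 (69.5%) in the same order. In T cells (Cd3e and Trbc1 or Trbc2 present, and Cd79a, Ms4a1 and Jchain at 0), which should lack kappa chains, the same rule assigned 25 of 1890 Phe-free cells (1.32%), 22 of 2432 MASH cells (0.905%) and 20 of 2576 Chow cells (0.776%), at a median of 1 Igkv UMI per T cell in each library. T cells were as deep as B cells (medians of 8623 to 9375.5 UMIs in T cells and 7941 to 8488 UMIs in B cells), so the assignment in B cells stood far above this background.

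Of the cells with at least 10 Igkv UMIs, a further group carried 2 segments, defined as 2 segments that together held at least 90% of the UMIs with at least 20% in the second. They made up 7.09% of Phe-free, 10.3% of MASH and 10.1% of Chow plasma cells, and 19.9%, 18.3% and 18.2% of B cells in these libraries. In B cells the 815 Phe-free, 920 MASH and 979 Chow cells of this kind were spread over 655, 705 and 732 different pairs of segments, and no pair was found in more than 7 cells of a library. Single segments were uneven among them: Igkv1-135 was 1 of the 2 segments in 10.2% of these Phe-free, 13.2% of these MASH and 12.2% of these Chow B cells. Igkv8-16 was in 26, 21 and 18 of them and Igkv4-77 in 13, 26 and 19, although each was assigned to at most 0.0505% of B cells in a library. Igkv4-77 is annotated as a pseudogene and was 94.8% identical to Igkv4-68. Both segments were of the same family in 10.3% of these Phe-free, 6.74% of these MASH and 6.95% of these Chow B cells. Independent segments would give 7.73%, 7.71% and 7.42%. Whether cells of this kind carried 2 joined segments was not tested. The median depth of such cells was 8556 UMIs in Phe-free, 9278 in MASH and 8761 in Chow B cells, against 8106.5, 8650.5 and 8491 UMIs in the assigned B cells with at least 10 Igkv UMIs. Scrublet, a doublet caller, marked 41 (5.03%), 35 (3.80%) and 27 (2.76%) of them, against 104 (3.42%), 135 (3.56%) and 146 (3.66%) of those assigned B cells. At the edge of the rule, 227 Phe-free, 246 MASH and 276 Chow B cells had 75 to 80% of their Igkv UMIs in 1 segment and were not assigned, and 241, 340 and 338 had 80 to 85% and were.

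The other light chain locus was a minor source. The lambda variable genes (Iglv) together held more UMIs than the Igkv genes in 34 Phe-free (7.82%), 23 MASH (7.96%) and 34 Chow (9.94%) plasma cells and in 157 (3.52%), 223 (3.94%) and 184 (3.12%) B cells. The constant gene Igkc was counted at 13248 CPM in Phe-free, 15229 CPM in MASH and 16959 CPM in Chow plasma cells, far under the summed Igkv genes, at 322182, 328147 and 319074 CPM. In B cells the Igkv genes summed to 6413, 6051 and 5658 CPM. The joining segments Igkj1 to Igkj5 held almost no UMIs, at most 2 in a class of a library, so joining could not be described.

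Both classes used a broad set of segments. The effective number of segments, which is the inverse of the chance that 2 cells share their segment, was 35.9 in Phe-free (95% interval 30.7 to 43.1), 36.3 in MASH (30.9 to 43.9) and 42.1 in Chow (36.5 to 49.7) plasma cells. B cells had 43.6 in the Phe-free library (41.8 to 45.7), 46.1 in the MASH library (44.6 to 47.7) and 45.5 in the Chow library (43.9 to 47.1). Plasma values were below those of B cells in all 3 libraries, with intervals that were apart in MASH and overlapped in Phe-free and Chow, and the plasma intervals of the 3 libraries overlapped each other. The number of different segments expected in 242 cells was alike: 60.8 Phe-free, 60.0 MASH and 61.1 Chow in plasma cells and 60.7, 61.0 and 61.7 in B cells. The 5 leading segments held 28.2% of Phe-free, 27.7% of MASH and 24.3% of Chow plasma cells, and 22.3%, 19.7% and 20.4% of B cells. The leading 5 were picked in each class and library by count, from far fewer plasma cells than B cells, and their intervals overlapped in Phe-free (23.8 to 33.1% against 20.8 to 23.8%) and Chow (19.4 to 29.7% against 19.2 to 21.6%).

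The same 4 segments, Igkv1-135, Igkv1-117, Igkv1-110 and Igkv10-96, were among the 8 leading segments of both classes, together with Igkv8-30. Igkv1-117, with the highest mean share of B cells, held 12 Phe-free (3.17%), 14 MASH (5.79%) and 16 Chow (5.63%) plasma cells, against 5.28%, 4.87% and 5.08% of B cells. Igkv1-135 held 5.28%, 4.96% and 5.28% of plasma cells, against 3.91%, 3.71% and 3.59% of B cells. Their mean ratios of plasma over B were 0.957 for Igkv1-117 and 1.38 for Igkv1-135, with intervals that held 1 in each library. Igkv8-30 had the highest mean share of plasma cells, leading in Phe-free and MASH and coming after Igkv1-117, Igkv1-135 and Igkv8-24 in Chow. It held 33 Phe-free plasma cells (8.71%, 6.07 to 12.01%), 15 MASH plasma cells (6.20%, 3.51 to 10.02%) and 12 Chow plasma cells (4.23%, 2.20 to 7.26%), against 3.21%, 2.58% and 2.86% of B cells.

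**Figure D1:**
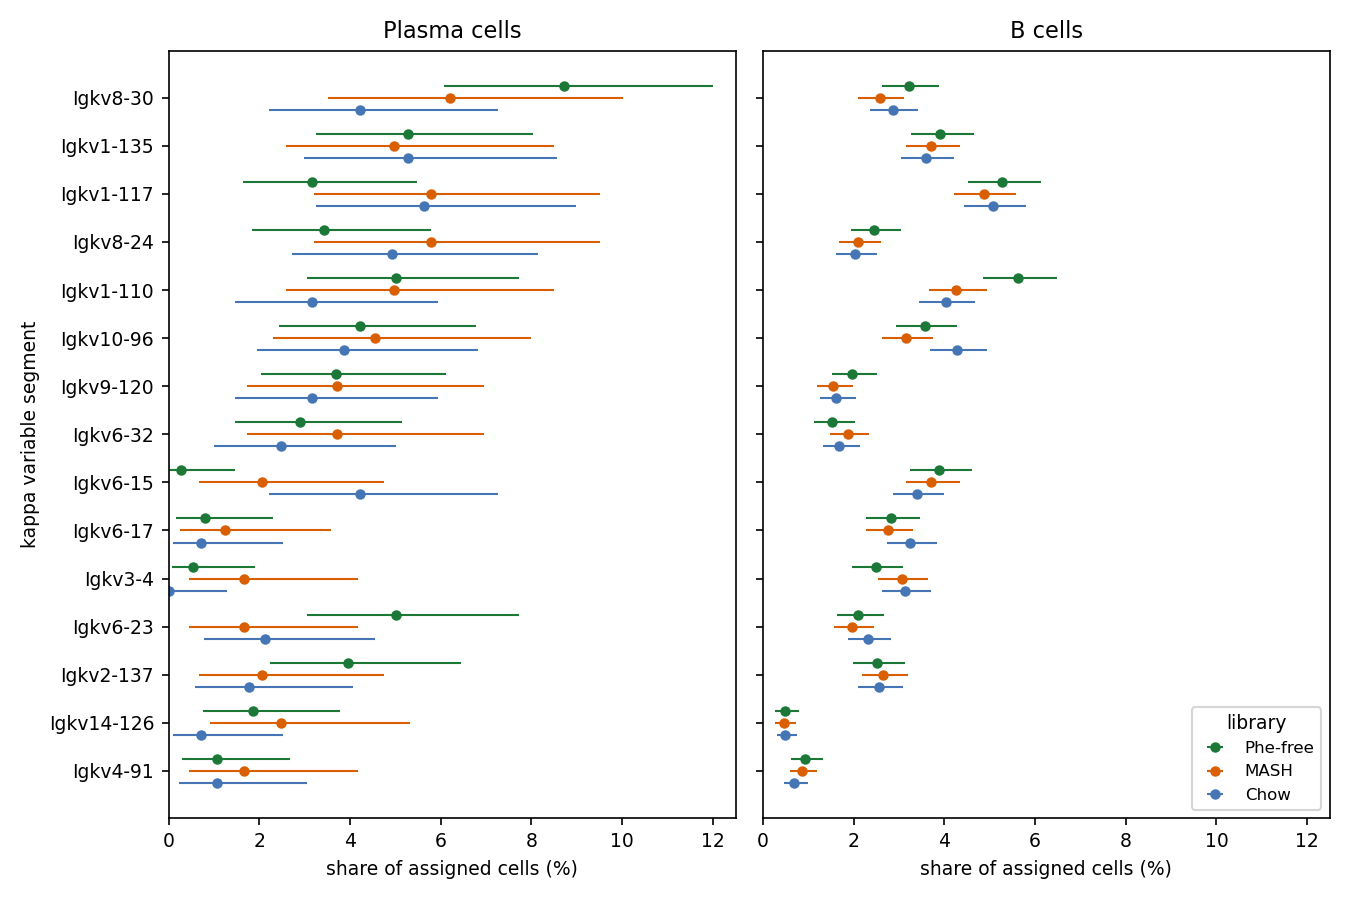
Share of assigned plasma cells (left panel) and B cells (right panel) in percent for the leading segments of both classes and 4 further segments. Points are the Phe-free, MASH and Chow libraries, 1 each, and lines are exact Clopper-Pearson 95% intervals for counting error. The points of the 3 libraries lie close in B cells and further apart in plasma cells, as for Igkv6-15, at 0.264% in Phe-free and 4.23% in Chow plasma cells.

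Beyond the leading genes, a part of the segments had different shares in plasma cells and B cells. Shares were averaged over the 3 libraries, and a segment was called when the means differed by 2-fold or more in the same direction in each library. Of 62 segments with at least 10 plasma cells or 30 B cells, 17 (27.4%) were called: 5 (8.06%) were higher and 12 (19.4%) lower in plasma cells. The 62 ratios were split evenly around 1, with 31 above and 31 below, and their median was -0.02 on the log2 scale. All 62 had at least 30 B cells, and 33 of them also had at least 10 plasma cells. The 5 higher segments were among these 33 and the 12 lower ones among the other 29, which were kept for their B cells alone, so the filter bears on the number of lower calls and on its balance with the higher ones.

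The highest ratio belonged to Igkv14-126, the kappa chain of the B-1 receptor with Ighv11. It held 7 Phe-free (1.85%), 6 MASH (2.48%) and 2 Chow (0.704%) plasma cells, against 15 (0.477%), 18 (0.454%) and 20 (0.489%) B cells, a mean ratio of 3.54. The plasma share was higher in all 3 libraries, and the interval of the ratio lay above 1 in the Phe-free (1.59 to 9.43) and MASH (2.19 to 13.6) libraries but not in the Chow library (0.339 to 6.14). Igkv14-126 also appeared in cells that should lack it: in the MASH library it held 14.8% of the Igkv UMIs of T cells and was the assigned segment of 16 of the 22 assigned T cells, at a median of 3.5 Igkv UMIs. The 18 MASH B cells with it held a median of 61 Igkv UMIs, and 14 of them had at least 10, above the level seen in those T cells.

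Igkv4-50 followed at a mean ratio of 3.13, on 3 Phe-free, 5 MASH and 2 Chow plasma cells. Igkv8-30 had a mean ratio of 2.21, Igkv8-24 of 2.15 and Igkv9-120 of 2.07. Igkv8-24 held 3.43% of Phe-free, 5.79% of MASH and 4.93% of Chow plasma cells, against 2.45%, 2.10% and 2.03% of B cells. Its ratio was 1.40 in the Phe-free library, 2.76 in the MASH library and 2.43 in the Chow library. Igkv4-61, also among the 5 highest ratios, was not called because it had no Chow plasma cell.

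The 12 lower segments held 3 to 8 plasma cells each over the 3 libraries. Igkv6-17 held 3 Phe-free (0.792%), 3 MASH (1.24%) and 2 Chow (0.704%) plasma cells, against 89 (2.83%), 109 (2.75%) and 133 (3.25%) B cells, a mean ratio of 0.310. Igkv3-4 held 2, 4 and 0 plasma cells in the Phe-free, MASH and Chow libraries, against 78, 121 and 128 B cells, a mean ratio of 0.252. For Chow, 0 of 284 cells allows a share of up to 1.29%, which is still below the 3.13% of Chow B cells. Igkv17-121 had the lowest mean ratio, 0.208, on 2 Phe-free, 0 MASH and 1 Chow plasma cells. Igkv19-93, the only member of its family, held 1, 2 and 3 plasma cells and 64, 101 and 94 B cells, a mean ratio of 0.312. The remaining 8 were Igkv8-28, Igkv6-25, Igkv10-94, Igkv3-10, Igkv17-127, Igkv13-84, Igkv12-41 and Igkv12-46, at ratios of 0.240 to 0.487. Igkv6-14, with 1 plasma cell and 35 B cells, was among the 5 lowest ratios and was not called.

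**Figure D2:**
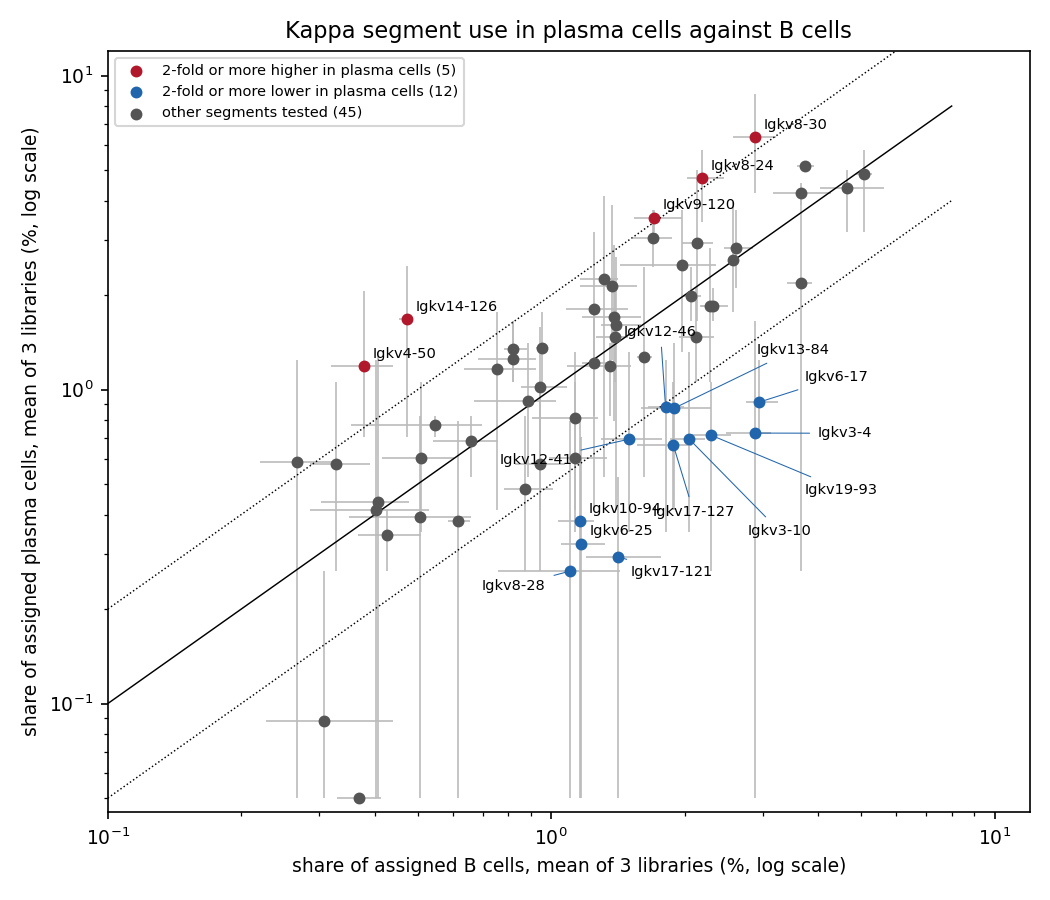
Mean share over the 3 libraries of each of 62 segments in plasma cells (vertical axis, percent, log scale) against B cells (horizontal axis, percent, log scale), with lines for the range of the 3 libraries. Plasma values of 0 are drawn at the lower edge of the panel; the solid line is equality and the dotted lines are 2-fold. The 5 higher segments lie above the upper dotted line and the 12 lower ones below the lower line, at B-cell shares of 1.10% and more.

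The calls were recomputed in other settings. In 12 settings, the main one and each library left out in turn among them, 7 of the 12 lower segments were called every time. These were Igkv17-127, Igkv17-121, Igkv10-94, Igkv19-93, Igkv6-25, Igkv6-17 and Igkv3-10. None of the 5 higher ones was called in every setting. The settings reuse the same cells and the same minimum of cells, which the lower segments met through their B cells alone. A call in every setting is thus no separate evidence of lower use in plasma cells. Without the MASH library 3 segments were called higher, and Igkv8-24 and Igkv9-120 were not among them. Igkv4-50, with 10 Phe-free, 15 MASH and 18 Chow B cells, had too few cells to be compared without the MASH or without the Chow library. Its absence there is thus not a ratio under 2-fold. Without the Phe-free library Igkv8-30 fell under 2-fold, with a ratio of 0.94 on the log2 scale. When each pair of kappa and heavy segment was counted once per class and library, 1 segment, Igkv8-30, was called higher and 10 lower. The ratio of Igkv14-126 was then 0.17 on the log2 scale, against 1.82 when each cell counted. All of its plasma cells with an assigned heavy segment carried Ighv11-1, so each library kept only that pair. Igkv14-126 was then below the minimum for a call, and the fall of its ratio follows from the way of counting.

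Families, given by the first number of the symbol, showed the same pattern in part. Family 8 held 17.9% of Phe-free, 14.5% of MASH and 14.1% of Chow plasma cells, against 11.6%, 9.62% and 9.82% of B cells, ratios of 1.54, 1.50 and 1.43. Most of these plasma cells carried Igkv8-30 or Igkv8-24, both called above: 33 and 13 of 68 Phe-free, 15 and 14 of 35 MASH and 12 and 14 of 40 Chow cells. In B cells the 2 segments held 101 and 77 of 366, 102 and 83 of 381 and 117 and 83 of 402. The family ratios are thus not separate from those 2 calls, and they were not computed without them. Within that family Igkv8-28 was called lower. Family 9 had ratios of 1.94, 1.46 and 1.65. Family 17, which holds Igkv17-121 and Igkv17-127, made up 1.06%, 0.413% and 1.41% of plasma cells in the Phe-free, MASH and Chow libraries, against 2.83%, 3.79% and 3.27% of B cells.

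The second number of the symbol orders the segments along the locus, with low numbers near the joining segments. The near stretch holds 47 genes, the middle 57 and the far stretch 56, of which 38, 32 and 31 were assigned to a cell. Segments numbered up to 45 held 42.5% of Phe-free, 46.3% of MASH and 43.7% of Chow plasma cells and 43.8%, 44.3% and 44.1% of B cells. Those from 91 on held 38.5%, 40.5% and 36.3% of plasma cells and 38.7%, 37.6% and 38.0% of B cells. The middle held 19.0%, 13.2% and 20.1% of plasma cells and 17.5%, 18.1% and 17.8% of B cells. The intervals of the plasma over B ratio held 1 for the middle segments in each library, with the lowest ratio, 0.732 (0.526 to 1.02), in the MASH library.

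**Figure D3:**
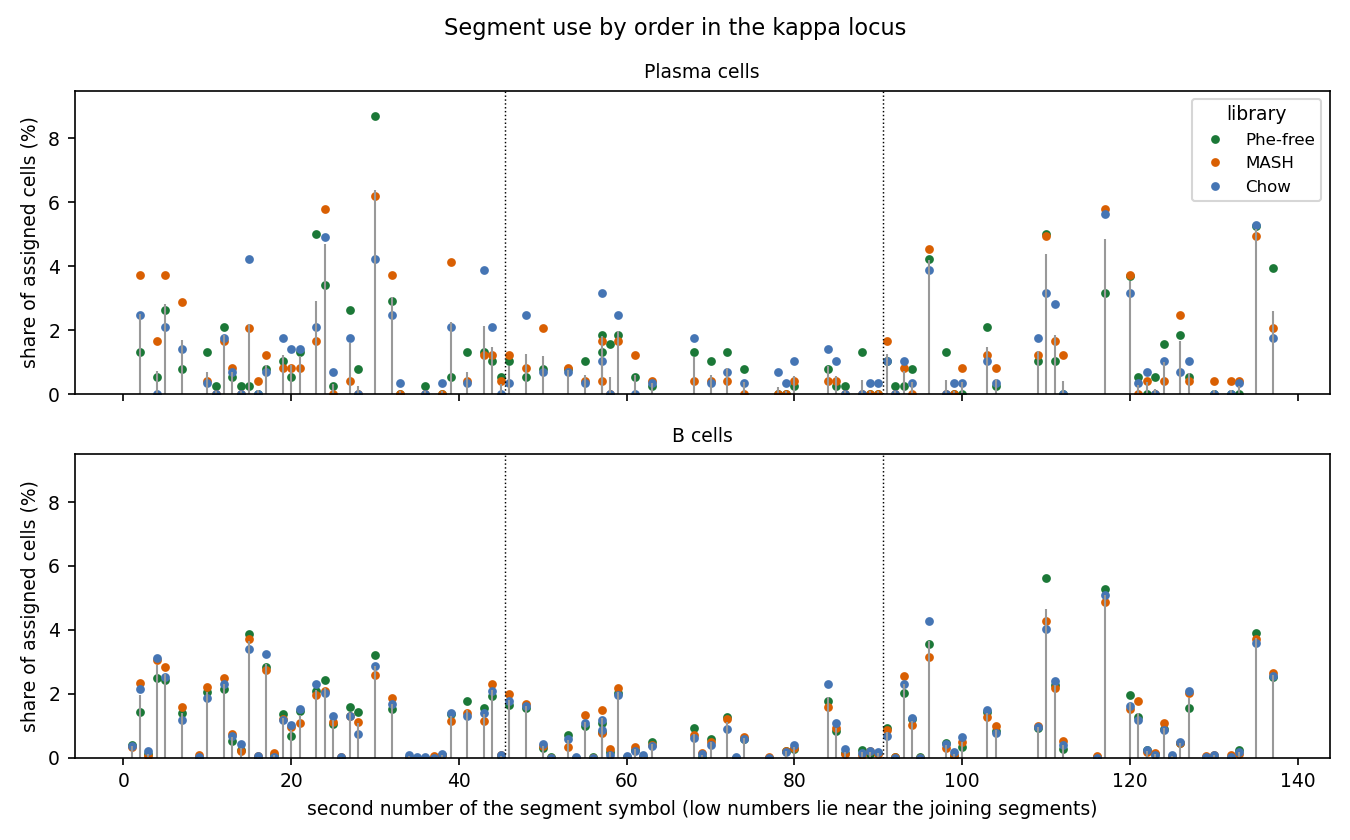
Share of assigned plasma cells (upper panel) and B cells (lower panel) in percent for each segment, placed by the second number of its symbol, which is its order in the locus and not a distance. Points are the Phe-free, MASH and Chow libraries, grey lines their mean, and dotted lines divide the near, middle and far segments. The near segments together held 42.5% to 46.3% of plasma cells and the middle ones 13.2% to 20.1%.

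Across libraries, B-cell use was nearly constant. Of 58 segments compared between MASH and Chow B cells, 0 (0%) differed by 2-fold or more, and the ratios ran from 0.603 to 1.48. Of 56 compared between Phe-free and MASH B cells, 0 (0%) did so, with ratios from 0.540 for Igkv2-112 to 1.98 for Igkv4-53. The interval of the ratio left out 1 for 3 of the 58 and 3 of the 56. For MASH over Chow these were Igkv17-121 (70 MASH and 49 Chow cells, ratio 1.48), Igkv10-96 (125 and 175 cells, 0.738) and Igkv13-84 (63 and 94 cells, 0.693). For Phe-free over MASH they were Igkv4-53 (22 Phe-free and 14 MASH cells, 1.98), Igkv1-110 (177 and 169 cells, 1.32) and Igkv3-2 (45 and 93 cells, 0.610). The other segments at the ends of the range had intervals that held 1. For MASH over Chow these were Igkv8-28 (ratio 1.47), Igkv3-7 (1.36), Igkv4-53 (0.603) and Igkv12-98 (0.689), and for Phe-free over MASH they were Igkv8-21 (1.35), Igkv5-43 (1.34), Igkv2-112 (0.540) and Igkv14-100 (0.693). An overlap index that is corrected for the number of cells, at 1 for equal use, was 0.996 between Phe-free and MASH B cells and 0.9999 between MASH and Chow B cells.

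Plasma cells, on far fewer cells, gave wider ratios. The same overlap index was 0.9496 between Phe-free and MASH plasma cells, 0.913 between Phe-free and Chow plasma cells and 1.01 between MASH and Chow plasma cells, so that for MASH and Chow it was as high as in B cells. Between plasma cells and B cells of the same library it was 0.862 in Phe-free, 0.887 in MASH and 0.938 in Chow. The Chow value was thus above that between Phe-free and Chow plasma cells, and the other 2 were below it. Between MASH and Chow, 4 of 19 segments (21.1%) differed by 2-fold or more, 1 (5.26%) higher and 3 (15.8%) lower in MASH. Igkv4-57 held 1 MASH and 9 Chow plasma cells (0.413% and 3.17%, ratio 0.130, 0.0166 to 1.02), Igkv5-43 held 3 and 11, Igkv6-15 held 5 and 12, and Igkv3-7 held 7 and 4. Igkv5-39 (10 MASH and 6 Chow cells, ratio 1.96) and Igkv3-5 (9 and 6 cells, 1.76) were the next highest and lay under 2-fold. No interval left out 1. Between Phe-free and MASH, 5 of 19 (26.3%) differed by 2-fold or more, 2 (10.5%) higher and 3 (15.8%) lower in Phe-free. Igkv6-23 held 19 Phe-free plasma cells (5.01%) and 4 MASH plasma cells (1.65%), a ratio of 3.03 (1.04 to 8.81), and Igkv5-39 held 2 (0.528%) and 10 (4.13%), a ratio of 0.128 (0.0282 to 0.578). These were the 2 of 19 whose interval left out 1. Igkv8-27 held 10 Phe-free and 1 MASH cells, Igkv3-7 held 3 and 7, and Igkv3-2 held 5 and 9. Between Phe-free and Chow, 7 of 22 (31.8%) differed by 2-fold or more, 3 (13.6%) higher and 4 (18.2%) lower in Phe-free. Of these 22 segments, 1 had an interval above 1 and 2 had an interval below 1. In B cells that comparison called 0 of 56 (0%). With plasma cells gated at 50 Jchain UMIs the plasma calls numbered 2 between MASH and Chow and 1 between Phe-free and MASH, and with each kappa and heavy pair counted once 0 and 1, so most of the segments listed were called only in some settings.

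Igkv6-15 is an example of a plasma-cell difference that B cells did not show. It held 1 Phe-free (0.264%), 5 MASH (2.07%) and 12 Chow (4.23%) plasma cells, and 3.88%, 3.71% and 3.40% of B cells. Of these plasma cells, 1 MASH and 4 Chow cells paired it with Ighv2-9. Without that pair its ratio of MASH over Chow was 0.581 (0.177 to 1.91), under 2-fold. Since the pair lay mostly in Chow cells, its removal had to bring the ratio closer to 1 and does not test the difference. Phe-free over MASH had too few plasma cells with Igkv6-15 to be compared. Phe-free over Chow had enough, and on 1 and 12 cells Igkv6-15 was lower in Phe-free by more than 2-fold. Igkv2-137 held 15 Phe-free (3.96%), 5 MASH (2.07%) and 5 Chow (1.76%) plasma cells and 2.51%, 2.65% and 2.57% of B cells. Igkv8-30 was highest in Phe-free plasma cells, but its ratio of 1.40 over MASH (0.780 to 2.53) and the MASH ratio of 1.47 over Chow (0.700 to 3.07) had intervals around 1. Phe-free over Chow, the ratio was 2.06 (1.08 to 3.92). The comparisons share libraries, so their ratios are not independent.

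**Figure D4:**
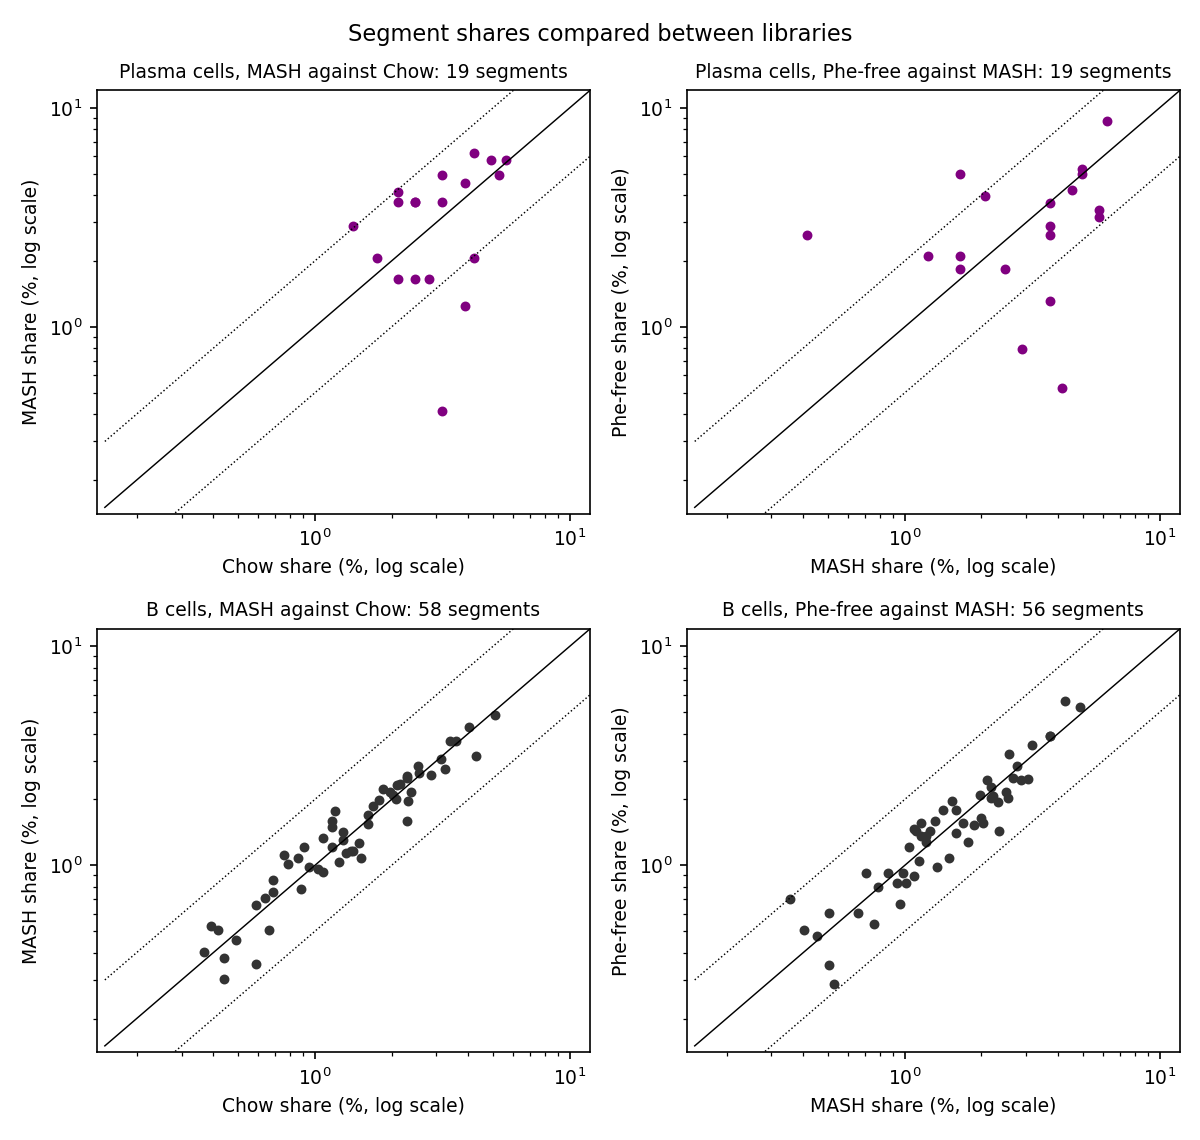
Share of each compared segment in one library against another, in percent on log scales, for plasma cells (upper panels) and B cells (lower panels), with MASH against Chow on the left and Phe-free against MASH on the right. The solid line is equality and the dotted lines are 2-fold. The B-cell points, 58 and 56, all lie within the 2-fold lines, and 4 and 5 of the 19 plasma points lie outside them.

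The same contrast was larger when expression was summed instead of cells counted. With an offset of 10 CPM, 58 of 94 Igkv genes differed by 2-fold or more between MASH and Chow plasma cells, 25 higher and 33 lower in MASH, against 1.4% of all 11167 genes tested (0.591% higher, 0.806% lower). Between Phe-free and MASH plasma cells 65 of 94 did so, 41 higher and 24 lower in Phe-free, against 1.4% of all 11532 genes (0.911% higher, 0.486% lower). In B cells 0 of 112 Igkv genes did so for MASH over Chow and 0 of 110 for Phe-free over MASH, where 0.204% (0.0926% higher, 0.111% lower) and 0.176% (0.132% higher, 0.0439% lower) of all genes were called. Igkv4-57 was counted at 42.5 CPM in MASH plasma cells and 12056 CPM in Chow plasma cells, a log2 ratio of -7.85, on the 1 and 9 cells given above. Igkv14-126 was counted at 14823 CPM in MASH and 1784 CPM in Chow plasma cells, a log2 ratio of 3.05, on 6 and 2 cells. Igkv7-33, at 0 CPM in MASH and 411 CPM in Chow plasma cells, was called lower in MASH with 1 assigned Chow cell. Only 19 segments in each comparison had the 10 plasma cells needed for a ratio of shares. Many of the summed calls thus rest on few cells, and the share of all genes is not a like background for them. The largest single plasma cell held 1.33% of all Igkv UMIs of the Phe-free, 1.83% of the MASH and 1.81% of the Chow plasma cells. These are shares of all Igkv genes together. Within a segment carried by few cells, a single cell can hold most or all of the UMIs.

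Pairing with the heavy chain divided the cells further. A kappa and a heavy segment were both assigned in 278 Phe-free, 172 MASH and 204 Chow plasma cells, which held 193, 122 and 152 different pairs. In B cells, 1820, 2357 and 2335 cells held 1061, 1260 and 1237 pairs. Set to 172 cells, plasma cells were expected to show 129.7 pairs in the Phe-free library, 122.0 in the MASH library and 132.6 in the Chow library, and B cells 159.4, 159.3 and 159.6. Repeated pairs were thus more frequent in plasma cells in each library. A pair names segments and not a junction, so cells that share it need not be a clone.

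Of 32 pairs with at least 3 plasma cells in 1 library, 19 were found in the plasma cells of that library alone, 7 in those of 2 libraries and 6 in those of 3. Only 1 of the 19, and 2 of the 32, had no B cell in any library. The same share over all plasma pairs was not computed, and with 172 to 278 cells per library a pair can be missed. The 19 pairs are thus not shown to be private to a library. Igkv8-30 with Ighv2-9 had the most plasma cells in a single library, with 13 Phe-free and no MASH or Chow plasma cells, and 3 Phe-free, 1 MASH and 1 Chow B cells. Igkv8-30 with Ighv2-2 held 7 MASH plasma cells and no Phe-free or Chow plasma cell. The most frequent heavy partner of Igkv8-30 thus differed between Phe-free and MASH plasma cells. Without the pair with Ighv2-9, Igkv8-30 held 20 of 366 Phe-free plasma cells (5.46%), and its ratio over MASH was 0.882 (0.460 to 1.69) in place of 1.40. Without the pair with Ighv2-2 it held 3.40% of MASH plasma cells, and the Phe-free ratio over MASH was 2.56 (1.20 to 5.44). The 2 removals, each of the top pair of 1 library, thus moved the ratio in opposite directions. In Chow plasma cells no heavy partner of Igkv8-30 had more than 2 of 6 cells.

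Other pairs were as uneven. Igkv8-24 with Ighv1-12 held 7 MASH plasma cells and no Phe-free or Chow plasma cell. Igkv4-57 with Ighv1-82 held 2 Phe-free, 0 MASH and 7 Chow plasma cells, which is most of the 9 Chow cells with that kappa segment. Igkv1-117 with Ighv6-3 held 6 Chow plasma cells and no Phe-free or MASH plasma cell. Igkv6-23 with Ighv6-6 held 10 Phe-free, 1 MASH and 3 Chow plasma cells, and without it the ratio of Igkv6-23 between Phe-free and MASH was 1.96 (0.536 to 7.16). Since that pair lay mostly in Phe-free cells, its removal had to lower the ratio and does not test the difference. In the pairs listed in this paragraph every plasma cell had IgM (Ighm) as its leading heavy constant gene.

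**Figure D5:**
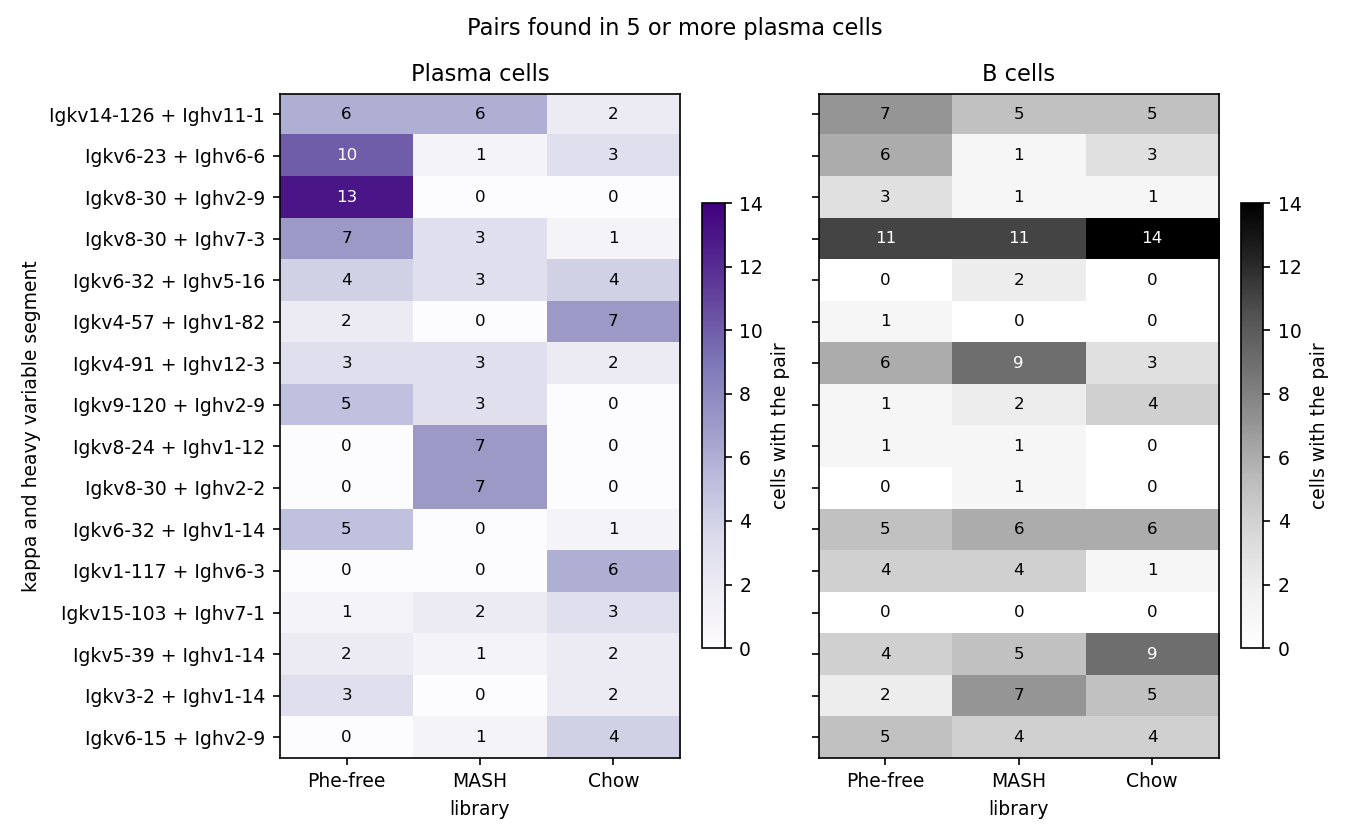
Number of plasma cells (left panel) and B cells (right panel) with each of the 16 kappa and heavy pairs found in at least 5 plasma cells, by library in the order Phe-free, MASH, Chow. Colour and printed number both give the cells. Igkv8-30 with Ighv2-9 has 13 cells in Phe-free and 0 in the other plasma columns, while Igkv14-126 with Ighv11-1 has cells in all 6 columns.

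A few pairs recurred across libraries. Igkv8-30 with Ighv7-3 held 7 Phe-free, 3 MASH and 1 Chow plasma cells, and it was also the most frequent partner in B cells, with 11 of 56, 11 of 60 and 14 of 60 Igkv8-30 cells with a heavy segment. Igkv14-126 with Ighv11-1 held 6 Phe-free, 6 MASH and 2 Chow plasma cells, which were all of the Igkv14-126 plasma cells with an assigned heavy segment. In B cells it held 7 of 13, 5 of 12 and 5 of 10 such cells. Seen from the heavy chain, the pairing was not exclusive. Of 17 Phe-free plasma cells with Ighv11-1, 10 had an assigned kappa segment, and it was Igkv14-126 in 6 of them. In MASH it was so in 6 of 6 and in Chow in 2 of 2 such plasma cells. The heavy segment counted was Ighv11-1 and not Ighv11-2, the segment named for this receptor; their references were 98.9% identical over 270 bases, no cell was assigned Ighv11-2, and the 2 cannot be told apart with confidence here. Their last 120 bases show it, with the capitals again after the cysteine codon.
Ighv11-1: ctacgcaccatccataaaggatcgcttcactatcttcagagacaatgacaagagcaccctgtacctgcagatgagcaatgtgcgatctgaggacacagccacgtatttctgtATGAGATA
Ighv11-2: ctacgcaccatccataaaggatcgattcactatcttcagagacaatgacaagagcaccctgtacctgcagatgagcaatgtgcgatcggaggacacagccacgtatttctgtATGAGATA

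Igkv4-91 with Ighv12-3, the other phosphatidylcholine pair, held 3 Phe-free, 3 MASH and 2 Chow plasma cells and 6, 9 and 3 B cells. Unlike Igkv14-126, the segment itself was not called: it held 1.06%, 1.65% and 1.06% of plasma cells and 0.922%, 0.858% and 0.684% of B cells. Igkv6-32 with Ighv5-16 held 4, 3 and 4 plasma cells and 0, 2 and 0 B cells. Igkv15-103 with Ighv7-1 held 1, 2 and 3 plasma cells and no B cell. Ighv7-1 is the heavy segment of the T15 antibody to phosphorylcholine, whose usual kappa partner is Igkv7-33; that segment was assigned to 1 Chow plasma cell, which also carried Ighv7-1, and to no other plasma cell or B cell.

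B cells with Igkv14-126 also differed in other genes. Their 7 marginal zone markers summed to 375 CPM in Phe-free, 708 CPM in MASH and 762 CPM in Chow cells, against 1695, 1651 and 1696 CPM in all assigned B cells. Their 7 B-1 markers summed to 707, 627 and 930 CPM, against 337, 323 and 556 CPM. Both differences had the same direction in all 3 libraries, on 15, 18 and 20 cells. The B-1 list leans on Ptpn22, a phosphatase that T cells also express, at 201 CPM in Phe-free, 204 CPM in MASH and 458 CPM in Chow B cells. The whole B-1 list summed to 1007, 1018 and 972 CPM in T cells of these libraries. B cells with Igkv4-91 differed in the same directions by less, at 1420 CPM in Phe-free, 1336 CPM in MASH and 1474 CPM in Chow cells for the marginal zone list and 381, 404 and 654 CPM for the B-1 list. B cells with Igkv4-50, on 10, 15 and 18 cells, stood at 1334, 1203 and 1352 CPM for the marginal zone list and 434, 747 and 761 CPM for the B-1 list, so the directions were not particular to Igkv14-126. The follicular markers were also lower in Igkv14-126 B cells, at 1107 CPM in Phe-free, 981 CPM in MASH and 1218 CPM in Chow cells. All assigned B cells had 1382, 1521 and 1505 CPM. The germinal centre markers were lower in Phe-free and Chow and higher in MASH.

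Most plasma cells were of the IgM class. Ighm led the heavy constant genes in 323 Phe-free, 224 MASH and 264 Chow assigned plasma cells, whose effective numbers of kappa segments were 34.3, 35.7 and 41.3. Another class led in 56, 18 and 20. Among the 56 Phe-free cells Igkv2-137 and Igkv1-110 led with 6 cells each, and Igkv8-30 held 2. In the MASH and Chow libraries no segment had more than 2 switched cells, so their use could not be described. Igkv3-2 with Ighv1-14 was led by IgG in its 3 Phe-free plasma cells and by IgM in its 2 Chow plasma cells.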

How the data were processed

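Per the labels' protocols, spleen cells were captured with a 10x 5′ kit 1 library per group. The deposited matrices hold whole-number UMI counts, per the file headers. The submitters' processing notes name Cell Ranger 9.0.1, Seurat 5.3.0 and the build GRCm39, with no role for each tool. The other deposited columns, of type other, are gene identifiers, symbols and barcodes, per the file headers.

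Barcodes were kept if they had 300 or more genes, 500 or more UMIs and no more than 10% of UMIs from mitochondria: 15864 Phe-free, 17651 MASH and 15984 Chow, from libraries of 160115282, 152501471 and 138787602 UMIs. Scrublet marked 304, 318 and 315 barcodes, which were kept here and left out as an alternative; most doublets may therefore remain. Segments and heavy partners were assigned at 80% of at least 3 UMIs. Shares have exact Clopper-Pearson 95% intervals, ratios of shares have 95% intervals from the counts on the log scale, and all cover counting error only. A plasma over B ratio needed at least 10 plasma cells or 30 B cells; a library ratio needed 10 plasma cells or 30 B cells over both libraries; a class at 0 was set to 3 cells. CPM were summed over a class, with an offset of 10 CPM and at least 20 UMIs over both sums. The tools were scanpy 1.11.5 (with Scrublet), scipy 1.17.1, pandas 2.3.3 and numpy 2.4.6 under Python 3.11.15, and the steps were checked on simulated data.

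The members and lists were chosen with earlier results of these data known. Segments were named by rule: the 8 leading in each class, the 5 highest and 5 lowest plasma over B ratios, the 3 highest and 3 lowest of each library comparison, and the segments of known B-1 receptors; segments in calls or pairs beyond these were named after their values were seen. Joining orientation was planned and not run, since the reference genome given is of another build.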

Additional observations from a re-analysis of the deposited data

How the results depend on the processing

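No paired analysis was possible because each group is 1 library. Of the summary values under each alternative, 136 stayed within their interval or, for counts, within 1.5 times, 26 did not, and none of the called ratios changed sign. At 95% of Igkv UMIs for an assignment, the effective number in B cells was 41.0 Phe-free, 43.3 MASH and 41.3 Chow, the 5 leading segments held 24.3%, 21.4% and 22.4% of them, and 1 segment was 2-fold apart between MASH and Chow B cells. With each kappa and heavy pair counted once, which keeps only cells with both segments assigned, the effective number was 44.1, 51.3 and 49.9 in plasma cells and 57.7, 59.1 and 59.1 in B cells, and the 5 leading segments held 15.1%, 13.9% and 15.8% of B cells; plasma cells over B cells then had 1 higher segment, and library comparisons had 0 (MASH over Chow) and 1 (Phe-free over MASH) called in plasma cells and 1 in B cells (MASH over Chow). With plasma cells gated at 50 Jchain UMIs, 2 segments were called between MASH and Chow and 1 between Phe-free and MASH plasma cells. Without cells carrying UMIs of the T-cell and myeloid genes named above, 1 segment was called in B cells for Phe-free over MASH. Leaving out each library in turn gave 3 to 6 higher and 12 to 13 lower segments in plasma cells. With an offset of 1 CPM, 10 Igkv genes were called in MASH over Chow B cells and 6 in Phe-free over MASH B cells. The cause of these shifts was not tested. Chosen after seeing the data, the share of Igkv8-30 without its commonest pair was 5.46% in Phe-free and 3.40% in MASH plasma cells. The number of cells limits the plasma shares: with 242 to 379 assigned plasma cells per library, few segments had intervals apart between libraries, and near-identical segments may share reads.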
